A study of Homo sapiens with 6 samples.

Results

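The clustered protocadherins were followed in tumours that the human small cell lung cancer line DMS114, an established line, formed along the sciatic nerve. They were taken as every gene of the count table whose symbol begins with PCDHA, PCDHAC, PCDHB, PCDHGA, PCDHGB or PCDHGC followed by a number. This gave 53 of 17081 genes: 15 of the alpha cluster, 16 of the beta cluster and 22 of the gamma cluster. All 6 libraries were poly(A) RNA of tumour tissue grown from this line. The invaded nerve region was proximal for 3 of them and distal for the other 3, and the comparison asks which tumour genes differ between these regions. The labels give neither the host, its age nor the animal of a piece, so p-values cover only the spread among these samples, and that spread may be technical. The pieces were bulk tissue, in which fewer cells of a type and less RNA per cell cannot be told apart.

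Protocadherins are transmembrane adhesion proteins of the cadherin superfamily. The clustered genes stand in a row on the long arm of chromosome 5. In the alpha and gamma clusters each gene has its own large first exon, with its own promoter, that encodes the extracellular and transmembrane parts, and this exon is spliced to small constant exons used by the whole cluster. Beta genes have no constant exons. Single neurons express a small set of isoforms chosen promoter by promoter, and like combinations on facing membranes recognise each other, which serves the self-avoidance of neuronal processes. The C-type genes, PCDHAC1, PCDHAC2, PCDHGC3, PCDHGC4 and PCDHGC5, lie at the downstream ends of the alpha and gamma clusters and are known for a less random choice.

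The shared part of these transcripts limits what a count per gene can mean, so the first constant exon of each cluster is shown. In the GENCODE v29 annotation of GRCh38, the alpha exon at chr5:140978949-140979007 belonged to 15 of 15 alpha genes and the gamma exon at chr5:141494807-141494865 to 22 of 22 gamma genes, both on the plus strand and both coding. Capitals mark the 39 of 59 positions at which both exons have the same base.
alpha constant exon 1: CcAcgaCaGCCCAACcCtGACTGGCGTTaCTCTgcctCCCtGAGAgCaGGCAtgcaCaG
gamma constant exon 1: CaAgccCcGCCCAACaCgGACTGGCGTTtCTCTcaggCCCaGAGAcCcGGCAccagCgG
The second constant exons, of 89 bases each, were the same at 29 positions. Bases shared with other genes of the cluster made up 19.2% to 64.4% of the exonic bases of an alpha or gamma gene and 0% of a beta gene. PCDHA1 carries all of the alpha constant exons, yet it had 0 counts in 5 libraries and 1 count in proximal 2, so reads of the constant exons were not added to every alpha gene. Whether some reads of the constant exons were given to single genes was not tested.

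Promoters of many of these genes are known for a conserved element with the core CGCTG, next to which the insulator protein CTCF binds. RefSeq promoters of GRCh38.p14, from 250 bases before to 50 bases after the start, were found for 47 of the 53 genes. Windows are shown for genes with high or low RNA levels from the families, PCDHB2 and PCDHB15 or PCDHGB4 and PCDHGB5 being far apart within one family, with the CGCTG in capitals, all on the plus strand and all upstream of the start.
PCDHA1, chr5:140786089-140786118: ggccacatgatgtCGCTGtacaccacaaag
PCDHA10, chr5:140855844-140855873: agccaccggatgtCGCTGtcgtccacaaaa
PCDHAC2, chr5:140966368-140966397: agcagtccgggttCGCTGtccgccacttcg
PCDHB2, chr5:141094547-141094576: agacgcggggtggCGCTGcagccttagaag
PCDHB15, chr5:141245317-141245346: caacgcatggtggCGCTGcaggctaaggct
PCDHB16, chr5:141182313-141182342: gaacgcgtggtggCGCTGcaggttaagatg
PCDHGA6, chr5:141373838-141373867: ggactctaagcgtCGCTGttgaccaacctg
PCDHGB4, chr5:141387620-141387649: tgactctgggcgcCGCTGttggccaaagtg
PCDHGB5, chr5:141397866-141397895: tgactctgggcgcCGCTGttggccaaagtg
PCDHGC3, chr5:141475883-141475912: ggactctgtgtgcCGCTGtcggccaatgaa
Read on both strands, CGCTG was in 41 of the 47 promoters and in 48.0% of all 35116 RefSeq promoters of this length. Longer forms were rarer among all promoters. TGTCGCTG and GCGCCGCTG contain CGCTG, whereas GGTGGCGCT ends in CGCT and need not be followed by the last G. TGTCGCTG was in 9 of the 47 and in 0.683% of all, GGTGGCGCT in 13 of the 47 and in 0.501% of all, and GCGCCGCTG in 10 of the 47 and in 1.28% of all. By family, TGTCGCTG was found in 6 of 11 PCDHA and 3 of 11 PCDHGA promoters and GGTGGCGCT in 13 of 14 PCDHB promoters. GCGCCGCTG was found in 6 of 11 PCDHGA and 4 of 7 PCDHGB promoters. The longer forms were chosen as an alpha, a beta and a gamma form, so these counts describe them and are no test of a link to the families. No PCDHAC or PCDHGC promoter held any of these longer forms. The windows printed for PCDHAC2, PCDHGA6 and PCDHGC3 match the core alone, which is common among all promoters, and need not be the conserved element. A match describes the letters and shows no binding.

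The 53 genes together took 33285 counts, between 4216 and 6194 per library or 0.0224% to 0.0283% of a library. Library totals ran from 16171106 to 26116191 counts. The cells were checked against the labels: POU2F3, a regulator that marks one subtype of small cell lung cancer, stayed below 1 CPM (CPM, the count scaled to library size after trimmed mean of M values scaling) in all 6 libraries, whereas YAP1 was at 167 to 187 CPM. Distal 3 and, to a smaller extent, proximal 3 stood apart by skeletal muscle markers. ACTA1, skeletal muscle actin, reached 302 CPM in distal 3 and 49.8 CPM in proximal 3, while the other 4 libraries had 0.661 to 6.42 CPM. MYH1, a fast muscle myosin, reached 398 and 74.0 CPM in the same libraries, while the other 4 had 0 to 5.82 CPM. The summed level, to which TPM2 gave 249 to 348 CPM per library, reached 3130 CPM in distal 3 and 693 CPM in proximal 3, while the others had 290 to 315 CPM. Summed Schwann cell markers were at 166 to 256 CPM, neuron markers at 213 to 323, endothelial markers at 3.68 to 8.12 and immune cell markers at 0.735 to 5.62.

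RNA of all 3 clusters was read in every library, and the beta cluster took the largest share, 43.9% to 51.7% of the reads of the clustered genes, followed by gamma at 29.9% to 38.3% and alpha at 12.5% to 19.2%. Within each cluster a few genes carried most of the reads. The 7 genes with a mean above 10 CPM, PCDHAC1, PCDHAC2, PCDHB2, PCDHB5, PCDHB6, PCDHB11 and PCDHGC3, held 44.9% to 55.7% of the reads of the clustered genes. At the other end, 14 genes with a mean under 1 CPM held 2.63% to 3.70%. The choice of genes was much alike from library to library: over the 53 genes, log2(CPM + 0.1) of the 15 pairs of libraries had Pearson's r of 0.93 to 0.96 and Spearman's rho of 0.90 to 0.96. These describe genes that share the same cell line and are not independent replicates.

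**Figure D1:**
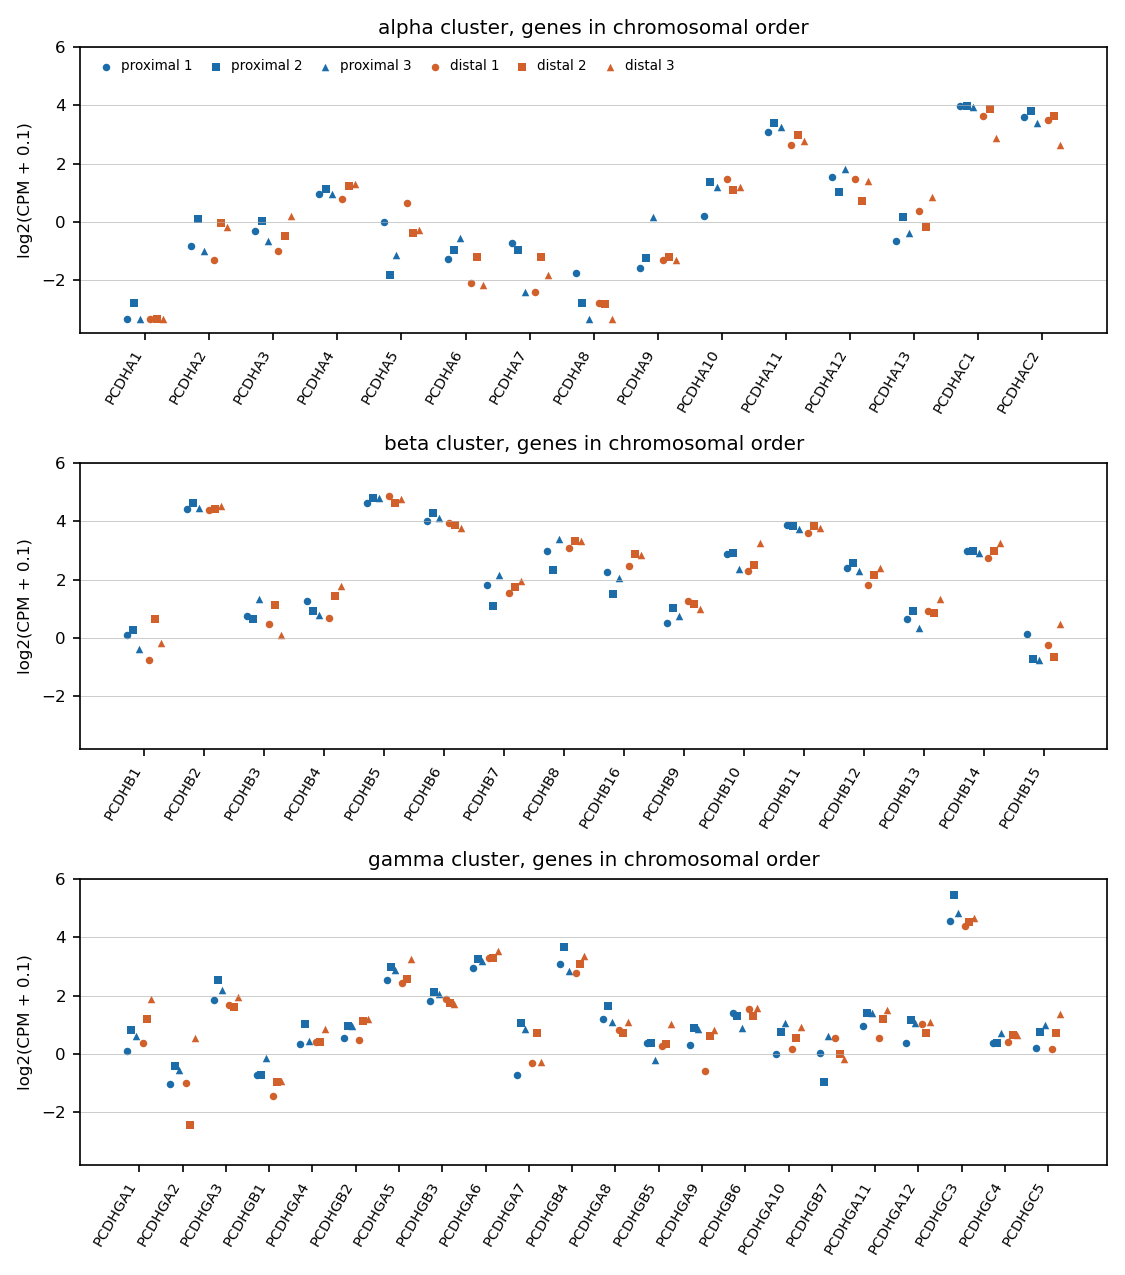
Level of each clustered protocadherin in each library, on a log axis of log2(CPM + 0.1), with genes in chromosomal order, blue for proximal and orange for distal libraries and a marker shape per replicate. The same genes are high in all 6 libraries, PCDHA11 and the C-type genes in alpha, PCDHB2, PCDHB5, PCDHB6 and PCDHB11 in beta, and PCDHGC3 in gamma, while PCDHA1 sits at the bottom with 1 read in all.

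In the alpha cluster 9 of the 13 PCDHA genes had a mean under 1 CPM. PCDHA11 was the highest of the 13, at 8.36, 10.4 and 9.52 CPM in proximal 1 to 3 and 6.12, 7.87 and 6.72 CPM in distal 1 to 3. It alone took 15.1% to 20.9% of the alpha reads. PCDHA12 followed at 1.52 to 3.41 CPM and PCDHA10 at 1.04 to 2.64 CPM. PCDHA4 was at 1.63 to 2.38 CPM. PCDHA5 varied widely at few reads, from 0.185 to 1.45 CPM, and PCDHA13 from 0.542 to 1.71 CPM. PCDHA2 and PCDHA3 were read in every library at 0.308 to 0.970 and 0.397 to 1.04 CPM. PCDHA6, PCDHA7 and PCDHA9 were also read in every library and reached at most 0.584, 0.503 and 1.03 CPM, and PCDHA8 at most 0.193 CPM. At the low end PCDHA1 had 0 counts in 5 libraries, which allows at most 0.116 to 0.183 CPM by 3 counts, for counting error only. Its promoter window above holds the same TGTCGCTG as that of PCDHA10, which was read in all libraries. PCDHA2, PCDHA5, PCDHA6 and PCDHA8 also have this match, and their means were 0.634, 0.713, 0.315 and 0.0541 CPM. The RefSeq promoter of PCDHA11, the highest of the PCDHA genes, had no such match. Its RefSeq start, at chr5:140868957, lies downstream of its first own exonic base in GENCODE v29, at chr5:140868241. A promoter at the GENCODE start may therefore not have been searched, and PCDHA11 cannot be said to lack the element. A relation of the match to the level was not tested.

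The C-type alpha genes were the highest of the cluster. PCDHAC1 was at 15.8, 15.6 and 15.1 CPM in the 3 proximal libraries and 12.3, 14.5 and 7.27 CPM in the 3 distal ones. PCDHAC2 was at 12.0, 13.9 and 10.5 CPM in the 3 proximal libraries and 11.2, 12.2 and 6.17 CPM in the 3 distal ones. Both were lowest in distal 3, where the exact 95% Poisson interval of PCDHAC1, 6.02 to 8.70 CPM, lay below that of distal 1, at 10.9 to 13.9 CPM. PCDHAC1 and PCDHAC2 together made up 55.3% to 60.8% of the alpha reads in the other 5 libraries and 41.7% in distal 3, with an exact binomial 95% interval of 37.5% to 46.1%. The sum of the 13 PCDHA genes was 18.7 CPM there, the highest of the distal libraries. These intervals cover counting error only. Distal 3 is also the library with the most muscle reads. Of 25 muscle markers 18 were tested and all 18 had values above 0, their median log2 fold change being 2.48. The markers' sum was 300, 315 and 693 CPM in proximal 1 to 3 and 290, 311 and 3130 CPM in distal 1 to 3. In this sum only distal 3 lay above every proximal library, so the 18 values need not be separate differences between regions. For TNNC1, a muscle troponin, every distal library was above every proximal one. It was at 2.48, 1.80 and 3.14 CPM in proximal 1 to 3 and 3.83, 4.24 and 10.7 CPM in distal 1 to 3. Its log2 fold change was 1.33 (SE 0.42, edgeR adjusted p = 0.9997). MYL2 was at 0 counts in every library but distal 3, and MYH1, MYH7, MYL1, MYLPF and MB were at 0 in 1 or more of the others. Fibroblast and perineurial markers were also lowest in distal 3, with a sum of 4664 CPM against 5541 to 6243 CPM in the other 5 libraries, and of 10 tested 4 had values above 0 and 6 below, the median being -0.11. The part of either marker list in the C-type values of distal 3 was not tested.

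**Figure D2:**
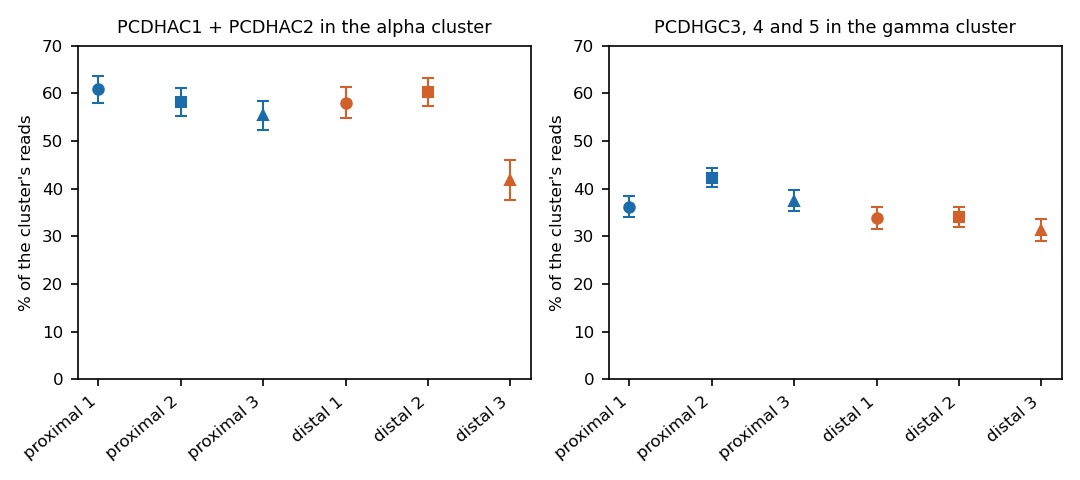
Share of a cluster's reads held by its C-type genes in each library, in percent, with exact binomial 95% intervals as bars, for alpha (left) and gamma (right). The alpha share is 55.3% to 60.8% in 5 libraries and 41.7% in distal 3, and the gamma share is highest in proximal 2 at 42.3%.

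The beta cluster was the most even between libraries, with its 16 genes summing to 121, 126 and 124 CPM in the 3 proximal libraries and 117, 123 and 133 CPM in the 3 distal ones. PCDHB5 was at 24.6, 28.0 and 27.8 CPM in the 3 proximal libraries and 28.9, 24.6 and 27.2 CPM in the 3 distal ones. PCDHB2 was at 21.3, 24.7 and 22.1 CPM in the 3 proximal libraries and 21.0, 21.2 and 23.1 CPM in the 3 distal ones. For both genes the groups overlapped and the highest library was within 1.18 times the lowest. PCDHB6 was at 15.9, 19.2 and 17.1 CPM in the 3 proximal libraries and 15.2, 14.5 and 13.5 CPM in the 3 distal ones, so that every proximal library was above every distal one. PCDHB16 showed the opposite order, with 4.68, 2.77 and 4.04 CPM in the 3 proximal libraries and 5.38, 7.17 and 7.02 CPM in the 3 distal ones. The other beta genes overlapped between the groups. PCDHB11 was at 11.9 to 14.4 CPM, PCDHB14 at 6.61 to 9.34 CPM, PCDHB8 at 4.94 to 10.4 CPM, PCDHB10 at 4.85 to 9.34 CPM and PCDHB12 at 3.44 to 5.82 CPM. PCDHB7, PCDHB4, PCDHB3, PCDHB9, PCDHB13 and PCDHB1 were read in every library and reached at most 4.31 CPM. PCDHB15 was the lowest beta gene, at 0.494 to 1.28 CPM. Its promoter window holds the same GGTGGCGCT as that of PCDHB2.

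In the gamma cluster PCDHGC3 was far above the other genes. It was at 23.4, 43.6 and 28.7 CPM in the 3 proximal libraries and 20.9, 22.8 and 25.0 CPM in the 3 distal ones and held 26.9% to 39.8% of the gamma reads. Proximal 2 was the highest library, and the groups overlapped. PCDHGC4 and PCDHGC5, the neighbouring C-type genes, stayed at 1.20 to 1.53 CPM and at 1.01 to 2.50 CPM. Among the PCDHGA genes, PCDHGA6 was highest, at 7.62, 9.47 and 9.03 CPM in the 3 proximal libraries and 9.78, 9.64 and 11.4 CPM in the 3 distal ones. PCDHGA5 was at 5.33 to 9.46 CPM, PCDHGA3 at 2.97 to 5.63 CPM, PCDHGA1 at 0.967 to 3.54 CPM, PCDHGA7 at 0.503 to 1.99 CPM and PCDHGA2, the lowest, at 0.0824 to 1.34 CPM. Among the PCDHGB genes, PCDHGB4 was highest at 6.70 to 12.5 CPM, then PCDHGB3 at 3.18 to 4.29 CPM and PCDHGB6 at 1.75 to 2.87 CPM, and PCDHGB1 was lowest at 0.264 to 0.808 CPM. For PCDHGA8 the groups did not overlap, with 2.17, 3.00 and 2.02 CPM in the 3 proximal libraries and 1.67, 1.52 and 2.02 CPM in the 3 distal ones, the closest 2 libraries being nearly level. For PCDHGB1 they did not overlap either, with 0.503, 0.508 and 0.808 CPM in the 3 proximal libraries and 0.264, 0.412 and 0.427 CPM in the 3 distal ones. PCDHGB4 and PCDHGB5 have the same 30-base promoter window, printed above, and PCDHGB5 was at 0.763 to 1.95 CPM.

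Levels of different genes were set side by side per length of the exonic bases that no other gene of the cluster shares. Per kilobase of own coding bases, which ran from 2272 to 2652 bases, the mean level was 11.2 CPM for PCDHB5, 10.6 for PCDHGC3 and 9.29 for PCDHB2. Per kilobase of all own exonic bases PCDHGC3 came first, at 8.43 CPM. The counts were not limited to coding bases, so dividing by coding bases raises genes with long noncoding exon parts. PCDHA10, with 2532 own coding and 12300 own exonic bases, was at 0.832 CPM per coding kilobase, rank 25. Per kilobase of all own exonic bases it was at 0.171 CPM, rank 45. The orders below use coding bases alone and may differ with the other length. In the alpha order by own coding bases, PCDHAC1, PCDHAC2 and PCDHA11 led with 5.47, 4.15 and 3.36 CPM per kilobase, and the first drop beyond the range of the 6 libraries came between PCDHA11 and PCDHA12, at 1.05. In the beta order such drops lay between PCDHB2 and PCDHB6 and between PCDHB11 and PCDHB8. In the gamma order they lay between PCDHGC3 and PCDHGB4 and between PCDHGB3 and PCDHGB6. All other neighbours in these orders overlapped in their ranges. Level per own coding kilobase was higher toward the downstream end of the alpha cluster, with a Spearman's rho of 0.69 over 15 genes, and rho was -0.13 over the 16 beta and 0.05 over the 22 gamma genes. These are descriptions across genes of the same 6 libraries.

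Similar sequence could move reads between some of these genes. Of the 100-base stretches of a gene's own transcript sequence, the share also found in another clustered protocadherin was above 10% for 10 genes. It was highest for PCDHB8, at 25.7%, and PCDHB10, at 24.7%, and it was 16.7% for PCDHGB4 and 15.3% for PCDHGB5. This share is not the error of a count, which also depends on how reads on several genes were handled. How far the values of these genes were moved was not tested. It was 0% for 14 genes, among them PCDHA11 and all 5 C-type genes. For 19 genes an antisense gene overlaps the exons, PCDHB16, PCDHB6, PCDHB5, PCDHB2 and PCDHAC2 among them, and without a stated strand setting reads of both strands cannot be told apart there.

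Between distal and proximal tumour no clustered protocadherin passed the test. Of the 53 genes, 48 passed the low-count filter, and PCDHA1, PCDHA6, PCDHA7, PCDHA8 and PCDHA9 did not. After Benjamini-Hochberg adjustment over all genes, the edgeR quasi-likelihood test called 0 of these 48 and 0 of all 13382 genes tested, a background of 0%, with an adjusted p of 0.9997 for every clustered protocadherin. At an unadjusted p under 0.05 there were 2 clustered protocadherins, PCDHA11 and PCDHB16, against a background of 1.33% of all genes, or 178. DESeq2 called 0 of the 53 genes, with 3 at an unadjusted p under 0.05, and limma-voom called 0, with 2. The 48 genes had a median log2 fold change (distal minus proximal) of 0.01, with 26 above 0 and 22 below, beside a median of 0.00 over all genes, with 6900 above and 6482 below.

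The genes with the lowest unadjusted p lay on opposite sides. PCDHB16 had a log2 fold change of 0.76 (SE 0.25, edgeR adjusted p = 0.9997), from means of 3.83 ± 0.973 CPM (SD, n = 3) in proximal and 6.52 ± 0.996 CPM in distal tumour. PCDHA11 had a log2 fold change of -0.45 (SE 0.18, edgeR adjusted p = 0.9997), from 9.44 ± 1.04 CPM in the proximal group and 6.90 ± 0.888 CPM in the distal group. Neither passed the adjustment over all genes. The 3 highest fitted values were those of PCDHA5, at 0.96 (SE 0.60), PCDHB16 and PCDHGA1, at 0.76 (SE 0.44). The 3 lowest were those of PCDHGB1, at -0.72 (SE 0.49), PCDHGC3, at -0.48 (SE 0.21), and PCDHGA7, at -0.48 (SE 0.55). Single libraries moved them. With 1 library left out, PCDHA5 ran from 0.51 (without distal 1) to 1.78 (without proximal 1) and PCDHGA1 from 0.32 (without distal 3) to 1.07 (without distal 1). PCDHGB1 ran from -0.84 (without proximal 1) to -0.46 (without proximal 3) and PCDHGA7 from -0.95 (without distal 2) to -0.14 (without proximal 2). PCDHGC3 was at -0.19 without proximal 2. PCDHAC1 had -0.44 (SE 0.23), which was -0.21 without distal 3, and PCDHAC2 had -0.29 (SE 0.25), which was -0.05 without distal 3.

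The proximal and distal libraries did not overlap for 7 of the 48 tested genes. Every proximal library was above every distal one for PCDHA11, PCDHAC1, PCDHB6, PCDHGB1 and PCDHGA8, which is 5 genes beside a background of 3.09% of all genes. Every distal library was above every proximal one for PCDHB16 and PCDHGA6, which is 2 genes beside a background of 3.2%. Their log2 fold changes were -0.28 (SE 0.13) for PCDHB6, -0.47 (SE 0.32) for PCDHGA8 and 0.24 (SE 0.17) for PCDHGA6, none past the edgeR threshold. Without proximal 2 PCDHGA8 was at -0.27, and without proximal 1 PCDHGA6 was at 0.14. Differences were bounded within 2-fold, up or down, by their 95% interval for 24 of the 48 genes and for 84.0% of all genes tested. For the 3 genes with the most reads the interval was narrow in the beta cluster, from -0.24 to 0.25 on the log2 scale for PCDHB5 and from -0.31 to 0.19 for PCDHB2, and wider for PCDHGC3, from -0.97 to 0.01. For the remaining 24 genes, PCDHB16 among them, the interval reached past 2-fold in at least 1 direction.

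**Figure D3:**
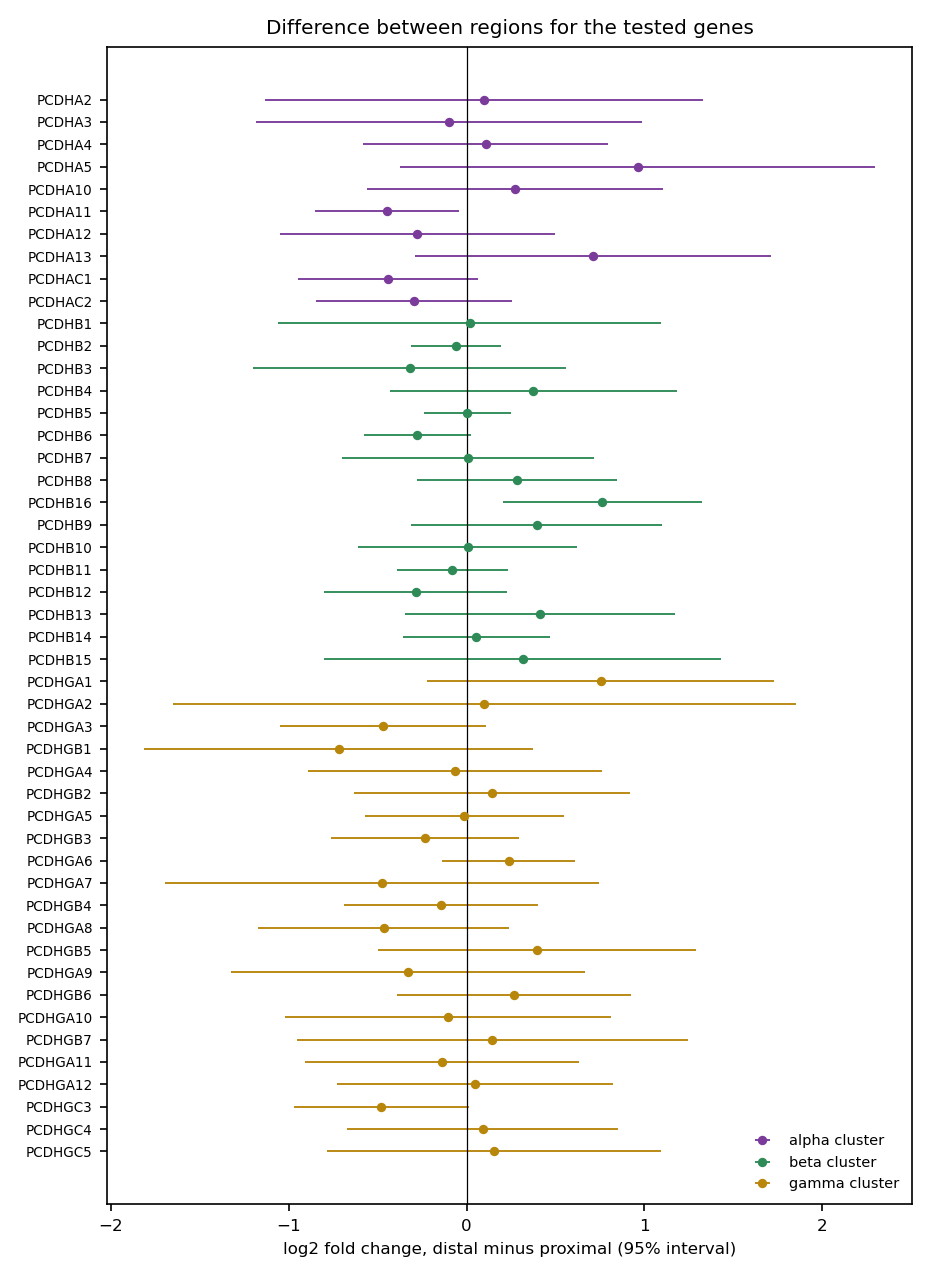
Log2 fold change, distal minus proximal, of the 48 tested clustered protocadherins in cluster and chromosomal order, with 95% intervals from edgeR's fit as bars. Only the intervals of PCDHA11 and PCDHB16 leave out 0, before adjustment, and PCDHB2 and PCDHB5 have the narrowest intervals.

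The alpha sum was 45.7, 50.8 and 46.3 CPM in the 3 proximal libraries and 40.5, 44.4 and 32.2 CPM in the 3 distal ones, so that the groups did not overlap, and its log2 ratio was -0.29, or -0.16 without distal 3. The beta sum was 124 ± 2.34 CPM (SD, n = 3) in proximal and 124 ± 7.99 CPM in distal tumour. The gamma sum was 71.1, 110 and 85.8 CPM in the 3 proximal libraries and 68.6, 75.9 and 92.7 CPM in the 3 distal ones. Its groups overlapped, and the log2 ratio of -0.17 became 0.01 without proximal 2. By family, the PCDHAC sum was 27.6 ± 1.98 CPM in the proximal group and 21.2 ± 6.94 CPM in the distal group, and the PCDHGC sum 34.7 ± 10.6 CPM and 26.0 ± 2.89 CPM. The PCDHGA sum was 34.4 ± 6.65 CPM in the proximal group and 34.0 ± 7.19 CPM in the distal group. These sums are descriptions without a test.

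**Figure D4:**
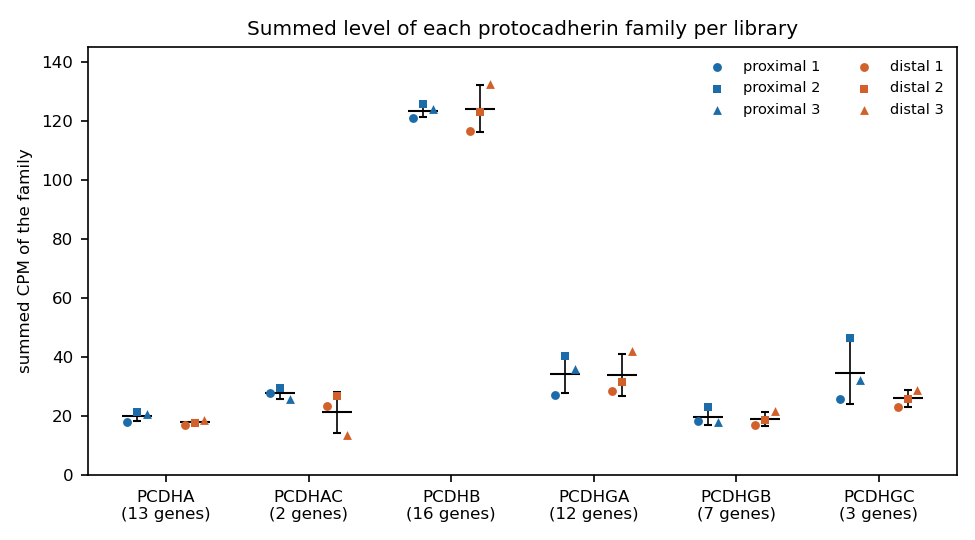
Summed CPM of each protocadherin family in each library, blue for proximal and orange for distal, with the group mean (black dash) and SD (bar, n = 3). PCDHB sums lie between 117 and 133 CPM in all 6 libraries, distal 3 is low for PCDHAC at 13.4 CPM, and proximal 2 is high for PCDHGC at 46.4 CPM.

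Genes known to act at the cluster promoters and enhancers were all read. In the list of 28 such regulators, 0 passed the edgeR test, 8 had values above 0 and 20 below, with a median log2 fold change of -0.03. CTCF, the insulator protein that loops the promoters to enhancers, was at 98.4 to 123 CPM. The cohesin subunits RAD21, at 1753 to 2054 CPM, and SMC3, at 541 to 584 CPM, were the most abundant of the list together with TRIM28, a corepressor of zinc finger proteins, at 280 to 341 CPM. The lowest unadjusted p values belonged to SMC1A, another cohesin subunit, with a log2 fold change of -0.14 (SE 0.09), and SMCHD1, a repressor known to act on these clusters, with -0.12 (SE 0.10). SMCHD1 was lowest in distal 3, at 243 CPM, against 285 to 321 CPM in the other libraries, and without that library its log2 fold change was -0.031. That of SMC1A was -0.092 without proximal 2.

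Among partners and processing enzymes of clustered protocadherins, 0 of 26 tested genes passed, with 15 values above 0 and 11 below and a median of 0.01. ADAM10, a protease that sheds protocadherin ectodomains, was at 322 to 355 CPM. ABI2 and NCKAP1, subunits of the WAVE complex that links to actin, were at 231 to 272 CPM and 235 to 255 CPM. For MARCKS, an actin-linked membrane protein, the log2 fold change was 0.33 (SE 0.14), or 0.21 without proximal 2, and for RET, a receptor tyrosine kinase known to bind protocadherins, it was -0.29 (SE 0.16).

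Of the 15 protocadherins and related genes outside the clusters in the table, PCDH9 had the highest level. PCDH9 was at 1332, 1262, 1183, 1247, 1175 and 691 CPM in proximal 1 to 3 and distal 1 to 3, lowest in distal 3 like PCDHAC1 and PCDHAC2. PCDH19 was at 51.3, 88.4 and 73.1 CPM in the 3 proximal libraries and 51.3, 56.5 and 49.8 CPM in the 3 distal ones, highest in proximal 2 like PCDHGC3. PCDH18 ranged from 12.6 CPM in proximal 2 to 101 CPM in distal 3. Of the 10 tested genes of this list 0 passed, with 5 values above 0 and 5 below and a median of 0.13, and the log2 fold change of PCDH19 was -0.43 (SE 0.18), or -0.24 once proximal 2 was left out. PCDH1, which lies near the clusters, was at 1.82, 2.40 and 2.83 CPM in the 3 proximal libraries and 3.57, 3.26 and 5.92 CPM in the 3 distal ones, a log2 fold change of 0.85 (SE 0.32, edgeR adjusted p = 0.9997) that was 0.54 without distal 3. Of 23 tested neighbours on 5q31, PCDH1 included, 0 passed, with 12 values above 0 and 11 below and a median of 0.00. HDAC3, a histone deacetylase gene there, was at 69.1 to 84.9 CPM, with a log2 fold change of 0.12 (SE 0.09), or 0.075 without proximal 2.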

How the data were processed

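For each of 6 libraries the authors deposited raw counts of reads for 17081 gene symbols. Per the submitters' processing notes, reads were handled with bcl2fastq, DESeq2, featureCounts 2.0.1, STAR 2.7.3a and Trimmomatic 0.39 on the build GRCh38. Not given in the sources used here were the annotation, the strand setting and the handling of host reads and of reads on several genes, so reads of shared exons, antisense genes or host tissue could alter a count. Per the labels, only RNA with an integrity number above 7 was used.

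From these counts, edgeR 4.0.16 in R 4.3.3 (expression filter by group, trimmed mean of M values scaling, robust quasi-likelihood test, Benjamini-Hochberg adjustment over all genes at 0.05) compared distal with proximal tumour without covariates. CPM were computed here on the scaled library sizes. Poisson and binomial intervals cover counting error only, whereas intervals of fold changes come from edgeR's fit and include the spread between libraries. The alternatives were DESeq2 1.42.0, limma-voom (limma 3.58.1), other scalings and filters, the replicate number as a block and libraries left out. The procedure was tested on simulated data. Shared exons came from GENCODE v29 and promoters from RefSeq. Figures were drawn with matplotlib 3.10.9.

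Genes named by rule were, per family, the 3 highest and the lowest by mean CPM, and all C-type genes. Also included were those at an unadjusted p under 0.05 or without overlap of the groups, and the 3 largest and 3 smallest fold changes. From the lists of regulators, partners, nonclustered protocadherins and neighbouring genes, the 2 with the lowest p were named. For regulators, partners and nonclustered protocadherins the 3 with the highest CPM were added. Other genes were named outside this rule, among them CTCF, further clustered protocadherins and the named markers of muscle and of the cell line. The genes and lists were chosen with earlier results of these data known. The values of some genes on the lists are not reported here.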

Additional observations from a re-analysis of the deposited data

How the results depend on the processing

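No clustered protocadherin passed the threshold under any alternative run. Over all genes, DESeq2 called 1 gene, EDIL3, and so did edgeR without distal 1, against 0 to 1 when each library was left out in turn. Of 595 refitted fold changes for 40 named genes, 563 kept their direction and 32 turned. Without a low-count filter PCDHB5 (-0.00037) and NCKAP1 (-0.00056) turned, with upper-quartile scaling PCDHGA5 (0.0029), and with limma-voom PCDHGA2 (-0.61). With the replicate block PCDHGA2 was at -0.21, and 0 clustered protocadherins were called, with 4 at an unadjusted p under 0.05. Whether the numbers pair the samples is not known: same-numbered libraries had correlations of 0.36, -0.11 and 0.18 between their deviations from the group means, so the numbers were not used as pairs. Without proximal 3 and distal 3, PCDHB15 was at -0.25, PCDHGC5 at -0.034, PCDH18 at -0.23 and TRIM28 at 0.0083. With each library left out in turn, values ran from -0.033 to 0.51 for PCDHA10, -0.11 to 0.0054 for PCDHB2, -0.059 to 0.064 for PCDHB5, -0.075 to 0.74 for PCDHB15, -1.16 to 0.65 for PCDHGA2, -0.31 to 0.14 for PCDHGA5, -0.30 to 0.12 for PCDHGB4, -0.23 to 0.41 for PCDHGC5, -0.13 to 1.54 for PCDH18, -0.035 to 0.0083 for SMC3, -0.13 to 0.0077 for TRIM28, -0.0088 to 0.097 for ABI2 and -0.033 to 0.030 for NCKAP1. The cause was not tested. PCDHGA2, PCDHA5 and the other genes near 1 CPM rest on few reads. Among the tested clustered protocadherins, PCDHGA2 (SE 0.78) and PCDHA5 (SE 0.60) had the least precise fold changes. Outside the clusters PCDH18 had an SE of 0.92 at a mean of 35.7 CPM.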
